A study of Mus musculus with 9 samples.

Results

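The proteasome genes of the mouse heart were followed in RNA-seq counts from the heart apex, the tip of the ventricles. The members were the rows of the deposited count table whose symbol is Psma, Psmb, Psmc or Psmd followed by a number, with the immunoproteasome genes Psmb8, Psmb9 and Psmb10 set apart. This gave 36 of 13192 genes. Of these, 35 encode parts or assembly factors of the proteasome: 8 core alpha, 7 core beta, 6 ATPase and 14 non-ATPase genes. The other match, Psmc3ip, encodes a meiotic recombination factor and not a subunit, and it was kept out of the classes. Psmb11, the beta subunit of the thymus, was not analysed here.

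The AAV-Osm group held 5 libraries from male wild-type C57BL/6J mice given an adeno-associated virus (AAV) that carries oncostatin M, a cytokine of the interleukin-6 family. The AAV-Null group held 4 libraries from male wild-type C57BL/6J mice given the control vector. In both groups 1e+11 viral particles were injected into the right gastrocnemius, a calf muscle, at 10 weeks of age, and hearts were taken 12 weeks later. The sources used here give neither the viral serotype nor the transgene's promoter, and Osm was not analysed here, which leaves the labels without a check on the delivered gene. Each library title opens with its own DJ number, but no label states that every library is a different mouse. The p-values therefore cover the spread among libraries, part of which may be technical. By its title, the study asked what exogenous oncostatin M does to heart function, muscle mass and fibrosis.

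The proteasome degrades proteins tagged with ubiquitin. Its barrel-shaped 20S core is built of rings of alpha subunits, which form the gate, around rings of beta subunits, of which a few carry the proteolytic sites facing the inner chamber. The 19S cap binds the ubiquitin tag, removes it, and unfolds the substrate with a ring of ATPases. In heart and skeletal muscle the system is known for the turnover of sarcomere proteins and for its part in atrophy, and subunit genes are known to rise together through the transcription factor NRF1, product of Nfe2l1, when proteasome activity is short.

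AAV-Osm libraries held 11841106 to 24551980 counts in named genes, and AAV-Null libraries 18594875 to 30625134. The 35 proteasome genes took 50126 to 110971 of the counts in AAV-Osm libraries and 76480 to 143425 in AAV-Null libraries. All 8 heart muscle markers checked, Myh6, Actc1 and Tnnt2 among them, were measured, and they summed to 72233 to 96269 CPM (counts scaled to library size with TMM factors) in AAV-Osm and 73815 to 94745 CPM in AAV-Null libraries. The liver-type markers summed to 6.65 to 63.1 CPM in AAV-Osm libraries and 7.02 to 171 CPM in AAV-Null libraries, highest in AAV-Null 3 and AAV-Null 4. Over all genes, 16 of 13192 (0.121%) passed an adjusted p of 0.05 in edgeR's quasi-likelihood test, 11 higher and 5 lower in AAV-Osm hearts.

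Proteasome genes were not among them. In edgeR's test 0 of 35 passed, and at the 0.121% called over all genes a list this short would mostly hold 0. In the same test 0 of 35 had an unadjusted p under 0.05 (5.97% of all genes did). DESeq2 and limma-voom with quality weights also called 0 of 35, where they called 53 and 170 of all 13192 genes. In 0 of 35 did the 5 AAV-Osm libraries stand wholly above or below the 4 AAV-Null libraries, a separation seen in 2.28% of all genes. The median log2 fold change of the 35 genes, AAV-Osm over AAV-Null, was 0.03, against 0.01 over all genes, and the range was -0.23 to 0.43. Log2 fold changes were positive in 22 and negative in 13, where 48.1% of all genes were negative. Adjusted p-values from edgeR ran from 0.923 to 0.999. In bulk tissue, fewer cells of a type and less RNA per cell cannot be told apart, so these values describe the apex as a whole.

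The precision of these estimates varied between genes. The 95% interval of the fold change lay wholly inside 1.5-fold in either direction for 24 of 35 proteasome genes, or 68.6%, against 51.6% of all genes and 75.3% of those with a mean of at least 20 CPM. It lay inside 2-fold for 33 of 35, or 94.3%, against 88.0% and 98.3% in the same order. The exceptions to the wider bound were Psma1 and Psma8.

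**Figure D1:**
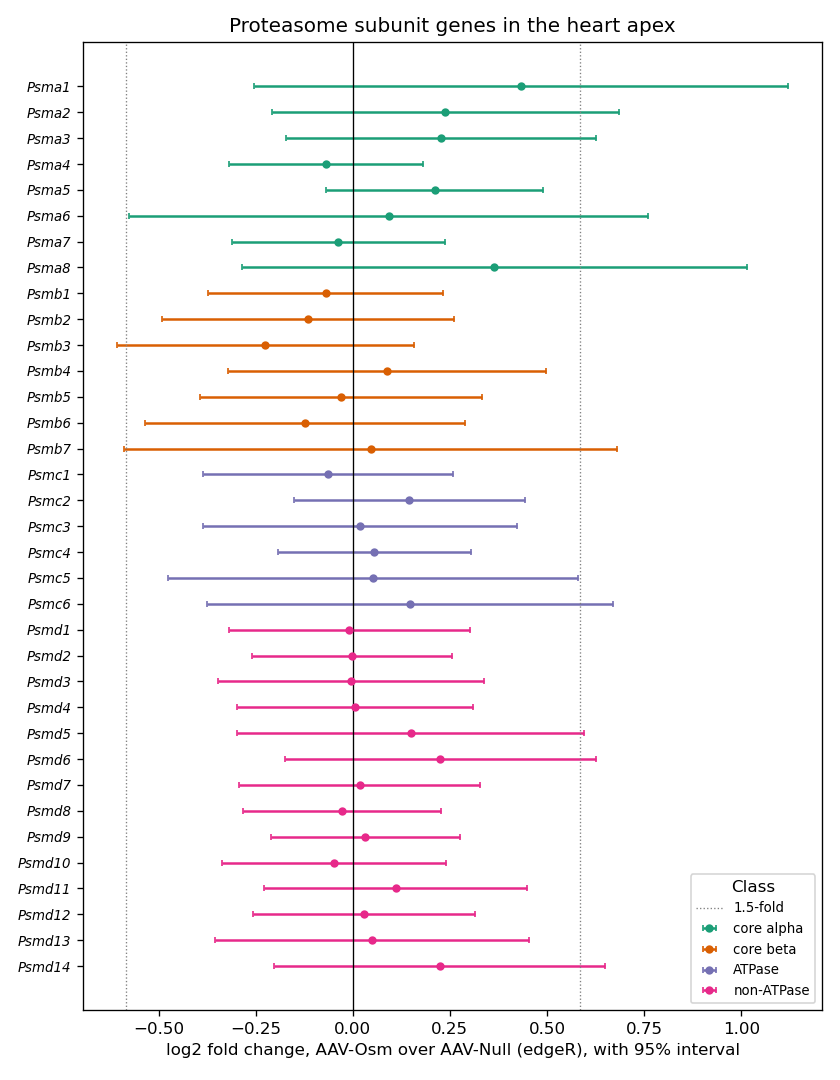
Log2 fold change of each proteasome gene, AAV-Osm over AAV-Null, by edgeR, with its 95% interval (bars), coloured by class; dotted lines mark 1.5-fold in either direction. Every interval spans 0, and the widest belong to Psma1, Psma6, Psma8 and Psmb7.

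The core alpha genes had a median log2 fold change of 0.22, and 6 of 8 had positive values. Without AAV-Osm 1 the median was 0.079, over the 7 alpha genes then tested. Psma1, a subunit of the alpha ring, had 144, 79.6, 39.7, 51.0 and 90.5 CPM in AAV-Osm 1 to 5, against 66.8, 71.7, 64.3 and 37.1 CPM in AAV-Null 1 to 4. AAV-Osm 1 was the highest library, AAV-Osm 3 fell among the lowest, and the groups overlapped. Its log2 fold change was 0.43 (SE 0.32, edgeR adjusted p = 0.934), and it was 0.12 without AAV-Osm 1.

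Psma5, the alpha gene with the smallest p, had 71.8, 68.3, 53.7, 57.6 and 58.9 CPM in AAV-Osm libraries, against 48.5, 56.4, 57.2 and 52.4 CPM in AAV-Null libraries. AAV-Osm 3 lay inside the AAV-Null range. Its log2 fold change was 0.21 with an SE of 0.13, and it did not pass (adjusted p = 0.923 in edgeR's test). Psma4, which had the most negative value in the class, had 130.0, 145, 126, 151 and 131 CPM in AAV-Osm libraries, against 137, 143, 144 and 149 CPM in AAV-Null libraries. AAV-Osm 1, 3 and 5 were below every AAV-Null library, and AAV-Osm 4 was above them all. Its log2 fold change of -0.07 (SE 0.12) had a 95% interval from -0.32 to 0.18, among the narrowest of the 35. Psma2 and Psma3, with log2 fold changes of 0.24 (SE 0.21) and 0.23 (SE 0.19), shared with Psma1 a maximum in AAV-Osm 1. Psma7 stood at -0.04 (SE 0.13). Psma8, an alpha subunit of male germ cells that takes the place of Psma7 there, was near the lower limit of the table, at 0.618 ± 0.139 CPM in AAV-Osm and 0.484 ± 0.106 CPM in AAV-Null hearts.

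The core beta genes were spread around 0, with a median log2 fold change of -0.07 and 2 of 7 positive. Without AAV-Null 4 the median was 0.060. Psmb5, Psmb6 and Psmb7 encode the subunits with the proteolytic sites, which cut after hydrophobic, acidic and basic residues in that order. Psmb5 had 122, 155, 131, 126 and 99.1 CPM in AAV-Osm 1 to 5, against 100.3, 114, 141 and 161 CPM in AAV-Null 1 to 4. Psmb6 had 183, 234, 224, 190.1 and 152 CPM in AAV-Osm libraries, against 159, 177, 231 and 291 CPM in AAV-Null libraries. Psmb7 had 297, 357, 328, 195 and 189 CPM in AAV-Osm libraries, against 151, 168, 355 and 385 CPM in AAV-Null libraries. In all 3 genes AAV-Null 1 and AAV-Null 2 were below AAV-Null 3 and AAV-Null 4, AAV-Null 4 was the highest library, and the groups overlapped. Their log2 fold changes were -0.03 (SE 0.17) for Psmb5, -0.12 (SE 0.19) for Psmb6 and 0.05 (SE 0.29) for Psmb7, with edgeR adjusted p-values of 0.994, 0.976 and 0.997.

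Of the exon bases of Psmb7, 40.8% are also exonic in Nek6 on the opposite strand, and since no source used here states whether counting used strand, reads of the 2 genes cannot be told apart there. GENCODE also annotates processed pseudogenes of Psmb5, Psmb6 and Psmb7, so reads shared with these copies leave their counts uncertain. Copies of other members are not listed here. Of the exon bases of Psmb5, 12.5% also lie in the microRNA gene Mir686 on the same strand. Among the beta subunits without a proteolytic site, Psmb3 had the most negative log2 fold change, -0.23 (SE 0.18, edgeR adjusted p = 0.936). It had 132, 178, 166, 222 and 128 CPM in AAV-Osm libraries, against 171, 186, 178 and 237 CPM in AAV-Null libraries, so AAV-Osm 1, 3 and 5 were below every AAV-Null library and AAV-Osm 2 and 4 lay within the AAV-Null range. Psmb4 had the most positive, 0.09 (SE 0.19). It had 205, 225, 207, 178 and 155 CPM in AAV-Osm libraries, against 130.4, 145, 227 and 228 CPM in AAV-Null libraries, and every AAV-Osm value fell between those of AAV-Null 2 and AAV-Null 3.

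Log2 fold changes of the ATPase genes, whose products form the ring that unfolds substrates, ran from -0.06 to 0.15 with a median of 0.05. Psmc6 had 74.4, 41.3, 35.4, 38.8 and 73.7 CPM in AAV-Osm 1 to 5, against 52.2, 53.4, 51.0 and 34.1 CPM in AAV-Null 1 to 4. AAV-Osm 1 and AAV-Osm 5 were above every AAV-Null library, and the other 3 AAV-Osm libraries were below 3 of the 4. The log2 fold change of Psmc6 was 0.15 (SE 0.24, edgeR adjusted p = 0.977). Psmc2 had the smallest p of the class, with a log2 fold change of 0.15 (SE 0.14). It had 92.4, 90.8, 70.8, 84.2 and 102 CPM in AAV-Osm libraries, against 82.1, 82.2, 86.6 and 67.5 CPM in AAV-Null libraries, with AAV-Osm 3 and 4 inside the AAV-Null range. Psmc1 had the most negative value, -0.06 (SE 0.15). It had 255, 330.1, 339, 383 and 273 CPM in AAV-Osm libraries, against 313, 307, 318 and 383 CPM in AAV-Null libraries, with AAV-Osm 1 and 5 the lowest. Psmc4 varied little, at 81.9 ± 6.12 CPM and 78.8 ± 3.75 CPM in AAV-Osm and AAV-Null hearts.

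The non-ATPase genes had a median log2 fold change of 0.02. Within 0.2 of 0 were 12 of 14 (85.7%), against 64.9% of all genes and 77.5% of those averaging at least 20 CPM. The share over all 35 proteasome genes was 77.1%. Psmd4 encodes a ubiquitin receptor of the cap. It had 131, 164, 165, 176 and 138 CPM in AAV-Osm 1 to 5, against 134, 144, 157 and 181 CPM in AAV-Null 1 to 4, and the ranges nearly coincided (log2 fold change 0.01, SE 0.14). Psmd14, the deubiquitinase that removes the tag, had 55.4, 35.0, 27.9, 29.8 and 43.8 CPM in AAV-Osm libraries, against 30.5, 35.7, 37.5 and 28.0 CPM in AAV-Null libraries. AAV-Osm 1 and AAV-Osm 5 were again the high ones, and its log2 fold change was 0.22 (SE 0.20, edgeR adjusted p = 0.947). Psmd6, a lid subunit, had the most positive value and the smallest p of the class, 0.23 (SE 0.19, edgeR adjusted p = 0.941). It had 89.2, 77.5, 61.3, 49.6 and 64.4 CPM in AAV-Osm libraries, against 47.5, 50.9, 74.2 and 61.7 CPM in AAV-Null libraries, with AAV-Osm 1 and 2 above every AAV-Null library.

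The scaffold subunits Psmd1 and Psmd2 had log2 fold changes of -0.0085 (SE 0.14) and -0.0019 (SE 0.12). Exons of Psmd1 overlap those of the annotated gene Gm21972 on the same strand over 9.24% of its bases. Psmd5, Psmd9 and Psmd10 encode chaperones that help assemble the ATPase ring and leave before the cap is finished. Psmd9 was the steadiest of the 35, with 21.5, 23.5, 22.2, 23.8 and 22.9 CPM in AAV-Osm libraries and 22.1, 21.9, 22.9 and 22.2 CPM in AAV-Null libraries. Psmd10 had the most negative value of the class, -0.05 (SE 0.13), from 11.5, 11.9, 10.4, 12.4 and 11.2 CPM in AAV-Osm libraries, against 10.9, 11.0, 12.6 and 13.0 CPM in AAV-Null libraries. Leaving out the chaperones gave a class median of 0.02.

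Levels per kilobase of exon (CPM divided by exon length) differed far more between subunits than between groups. Among the 31 genes other than Psma8 and the chaperones, they ran from 24.9 for Psmd14 to 282 for Psmb7 in AAV-Osm hearts and from 21.4 to 273 for the same genes in AAV-Null hearts. In AAV-Osm hearts the class medians were 190 for the beta genes, 88.5 for the alpha genes without Psma8, 87.7 for the ATPase genes and 65.3 for the non-ATPase genes without chaperones. In AAV-Null hearts they were 192, 75.1, 84.5 and 65.4 in the same order. The ATPase genes spread 6.28-fold in AAV-Osm and 7.26-fold in AAV-Null hearts, from Psmc6 to Psmc1, whereas the beta genes spread 2.89-fold and 2.58-fold. The chaperone genes were low, at 6.67 to 8.79 in AAV-Osm and 6.04 to 8.59 in AAV-Null hearts.

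**Figure D2:**
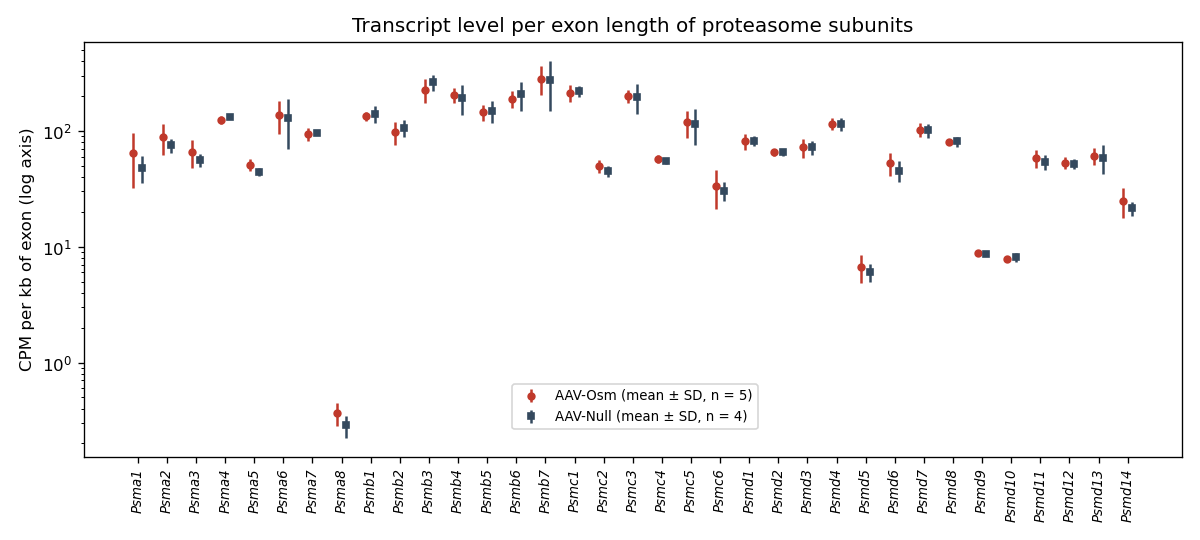
Level of each subunit gene per kilobase of exon (CPM per kb, log axis) as the mean with SD of 5 AAV-Osm and 4 AAV-Null libraries. The means of the groups lie close for each gene, Psma8 is at 0.365 in AAV-Osm and 0.286 in AAV-Null hearts, and Psmb7 is the highest in both.

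The SD of log2 CPM within groups had a median of 0.26 over the 35 genes, against 0.24 over genes with a mean of at least 20 CPM, and it ran from 0.05 for Psmd9 to 0.61 for Psma6 and 0.62 for Psma1. Psma6, an alpha subunit, had 157, 177, 168, 75.2 and 109 CPM in AAV-Osm 1 to 5, against 74.4, 80.4, 188 and 173 CPM in AAV-Null 1 to 4. Its values thus fell into a high and a low set that crossed the groups, and the log2 fold change was 0.09 (SE 0.31). Psmc5, an ATPase, had the same 5 libraries high and the same 4 low, with 163, 187, 188, 99.3 and 118 CPM in AAV-Osm libraries, against 106, 101, 178 and 199 CPM in AAV-Null libraries.

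The 5 libraries highest for Psma6, AAV-Osm 1 to 3 with AAV-Null 3 and 4, were also the 5 highest for Psmb7, Psmc5, Psmb4 and Psmd13. These 5 genes are 14.3% of the proteasome genes, against 7.51% of all genes with the same 5 libraries highest. The set of libraries was taken from Psma6, so the match of that gene was fixed in advance. Over all genes this set was the most frequent of the 126 possible sets of 5 libraries, so it is not particular to the proteasome genes. In Psmb2 and Psmd2 the other libraries, AAV-Osm 4 and 5 and AAV-Null 1 and 2, were the 4 highest, as were 7.69% of all genes. Psmb2 had 68.6, 71.3, 69.7, 95.2 and 109 CPM in AAV-Osm libraries, against 99.3, 105, 81.8 and 72.7 CPM in AAV-Null libraries. Psmb2 and Psmb7, which encode subunits of the same ring, thus had opposite sets of high libraries. The libraries are consecutive in the numbers that close their titles, 39 to 43, and the others are 37, 38, 44 and 45; no source used here says what that number stands for. TMM factors were 1.02, 0.928 and 0.938 in AAV-Osm 1 to 3 and 0.993 and 0.923 in AAV-Null 3 and 4, and 0.970 and 1.10 in AAV-Osm 4 and 5 and 1.07 and 1.07 in AAV-Null 1 and 2. The part of these values in the pattern was not tested. AAV-Null 3 and 4 were the AAV-Null libraries in which Psma6, Psmb7, Psmc5, Psmb4 and Psmd13 were high. Leaving them out therefore raises the fold changes of these 5 genes by construction. Without them 0 of 35 passed the adjusted threshold, and the log2 fold changes of Psma6 and Psmb7 were 0.83 and 0.78. At an unadjusted p under 0.05 there were 7 of 35, all higher, against 9.99% of all genes. With limma-voom and quality weights there were 8 of 35, 7 higher and 1 lower, against 25.2% of all genes.

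**Figure D3:**
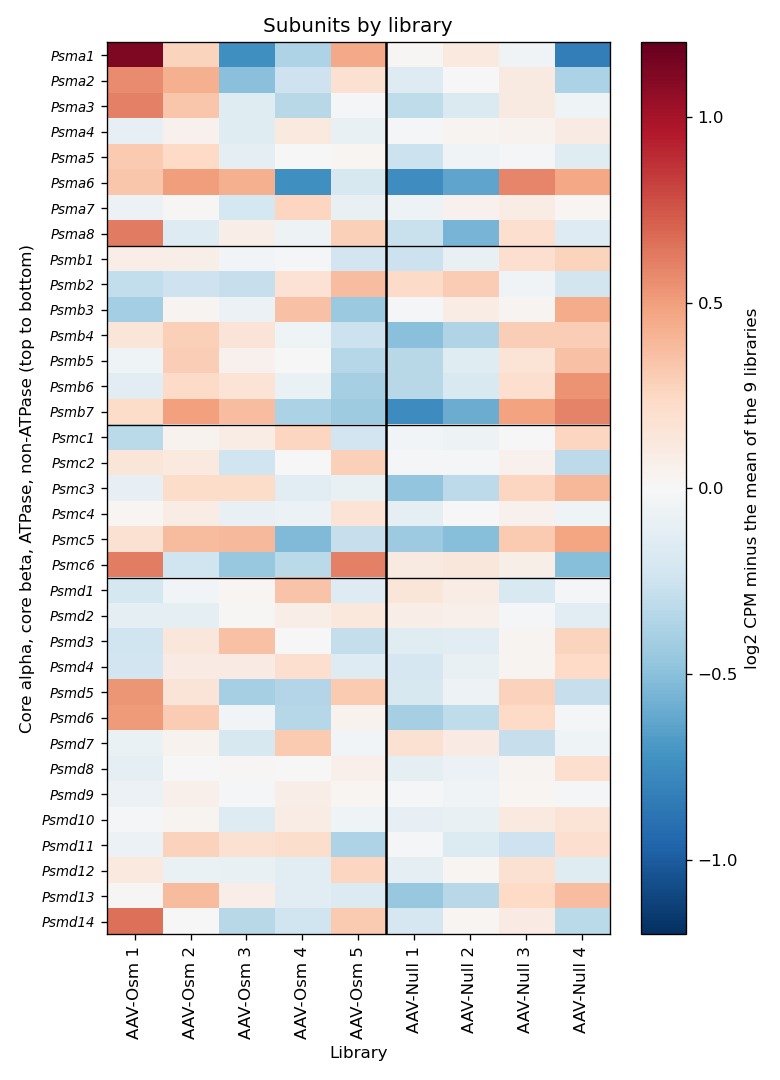
Log2 CPM of each subunit gene minus its mean over the 9 libraries, with AAV-Osm libraries left of the line and AAV-Null libraries right of it, and classes from top to bottom. Red and blue blocks cross the groups: Psma6, Psmb7 and Psmc5 are red in AAV-Osm 1 to 3 and AAV-Null 3 and 4, and Psma1, Psmc6 and Psmd14 are highest in AAV-Osm 1.

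**Figure D4:**
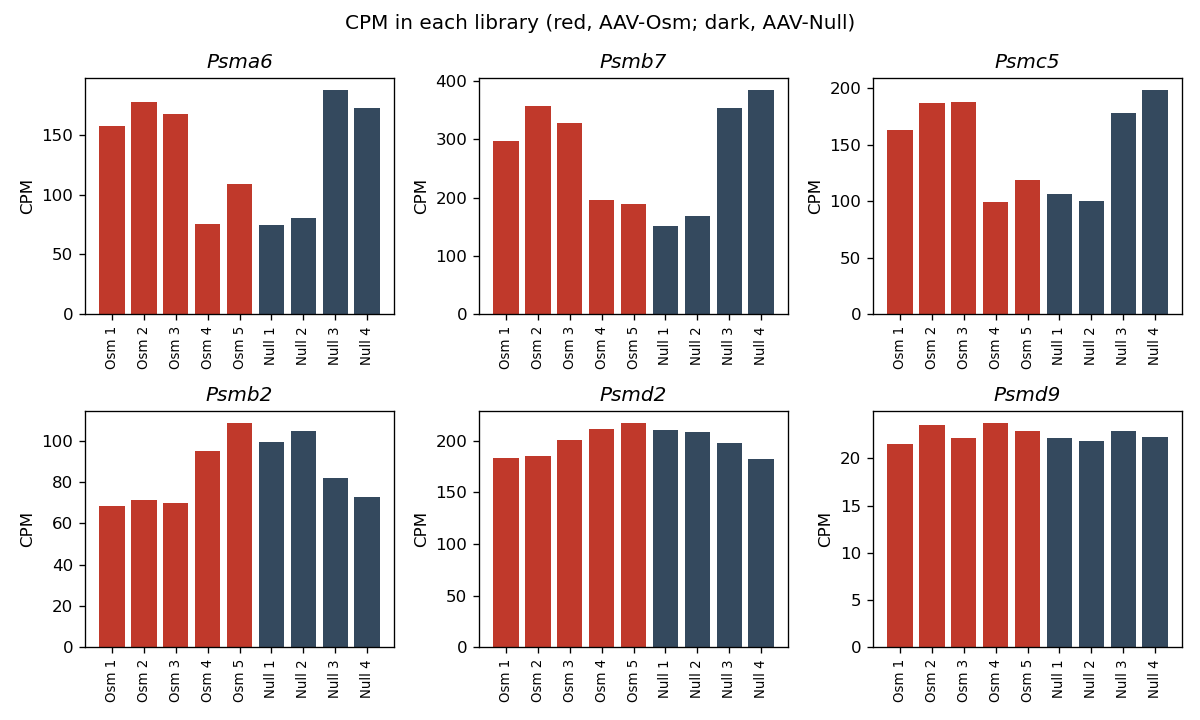
CPM in each library for 6 subunit genes, AAV-Osm in red and AAV-Null in dark grey. Psma6, Psmb7 and Psmc5 share their high libraries, Psmb2 and Psmd2 are highest in the other 4, and Psmd9 is nearly level at 21.5 to 23.8 CPM over all 9.

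AAV-Osm 1 was the highest library for 9 of 35 genes (25.7%, against 12.9% of all genes), namely Psma1, Psma2, Psma3, Psma5, Psma8, Psmc6, Psmd5, Psmd6 and Psmd14. AAV-Null 4 was the highest for 11 of 35 (31.4%, against 19.7% of all genes), 6 of them core beta genes. Psma2 had 113, 102, 53.7, 64.0 and 86.4 CPM in AAV-Osm libraries, against 68.2, 76.0, 81.8 and 58.4 CPM in AAV-Null libraries. The summed CPM of all 35 genes was 4436 ± 294 in AAV-Osm and 4385 ± 551 in AAV-Null hearts (SD, n = 5 and 4). It was lowest in AAV-Null 1, at 3834, and highest in AAV-Null 4, at 4981, so the extremes of all 9 libraries both lay in the AAV-Null group. The core alpha and beta genes summed to 1920 ± 213 CPM in AAV-Osm and 1908 ± 350 CPM in AAV-Null hearts. The ATPase and non-ATPase genes, chaperones included, summed to 2516 ± 128 CPM in AAV-Osm and 2477 ± 205 CPM in AAV-Null hearts. Per kilobase of exon, their ratio to the core genes was 0.771 ± 0.0636 in AAV-Osm and 0.760 ± 0.0723 in AAV-Null hearts. This is not a ratio of the whole cap to the core, since the cap genes Shfm1 and Adrm1 were outside the classes. Per kilobase, Shfm1 was at 340 in AAV-Osm and 373 in AAV-Null hearts, and Adrm1 at 38.8 and 38.0.

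Promoter sequences from RefSeq (GRCm38, 250 bases before to 50 after the start site) were matched for 28 of 35 genes, to show what the subunits share apart from their counts. The core of the antioxidant response element bound by NRF1, TGACNNNGC on either strand, was in 5 of 28 windows (17.9%), against 12.4% of all 32851 promoters and 14.4% of those of tested genes. The holders were Psmb5, Psmb6, Psmc6, Psmd9 and Psmd12. The stretches around the match of 3 of them are shown with the motif in capitals, since Psmb5 and Psmb6 carry proteolytic sites and Psmc6 came next to Psmc5 as the most variable ATPase gene. They are given on the gene's strand, and in Psmc6 the motif reads on the opposite strand.
Psmb5, chr14:54618023-54618072, minus strand: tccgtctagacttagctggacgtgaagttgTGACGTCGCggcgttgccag
Psmb6, chr11:70525318-70525356, plus strand: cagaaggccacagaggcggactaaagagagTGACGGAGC
Psmc6, chr14:45329574-45329635, plus strand: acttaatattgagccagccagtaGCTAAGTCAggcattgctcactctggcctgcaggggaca

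The core motif of ETS factors, CCGGAA on either strand, was in 15 of 28 windows (53.6%), against 14.9% of all promoters and 25.6% of those of tested genes. Psmc5 and Psmd2 are shown because both hold it, while the 4 libraries highest for Psmd2 were the 4 lowest for Psmc5. Psmc2 and Psma5 are shown as further members of the ATPase and alpha classes, and the capitals again mark the motif, which reads on the opposite strand in both.
Psmc5, chr11:106256060-106256125, plus strand: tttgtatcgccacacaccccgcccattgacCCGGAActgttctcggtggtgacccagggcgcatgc
Psmd2, chr16:20651540-20651605, plus strand: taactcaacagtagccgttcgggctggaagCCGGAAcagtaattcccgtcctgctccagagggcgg
Psmc2, chr5:21785162-21785227, plus strand: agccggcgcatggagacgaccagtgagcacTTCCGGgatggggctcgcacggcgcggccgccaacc
Psma5, chr3:108256742-108256807, plus strand: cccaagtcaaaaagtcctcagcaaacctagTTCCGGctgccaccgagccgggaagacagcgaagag

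Other motifs searched on both strands were the CCAAT box, the TATA box TATAAA and the E-box CACGTG. The first was in 10 of 28 windows (35.7%), against 37.4% of all promoters and 37.0% of those of tested genes. TATAAA was in 3 of 28 (10.7%), against 13.6% and 7.39%, and CACGTG in 2 of 28 (7.14%), against 7.15% and 9.86%, in the same order. A match describes the letters in the window and does not show binding.

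Genes that work with the proteasome also gave 0 calls in edgeR's test: 0 of 3 immunoproteasome subunits, 0 of 6 regulators of the core's gate, 0 of 5 chaperones of core assembly, 0 of 7 other cap subunits and associated proteins, 0 of 6 ubiquitin and activating-enzyme genes, 0 of 13 shuttle factor and p97 genes and 0 of 9 genes of the NRF1 pathway. Over all genes 0.121% were called, so lists this short would mostly hold 0 at that share. Ddi2 is counted in both the p97 and the NRF1 list. Psmb8, Psmb9 and Psmb10 replace the proteolytic subunits in immune cells and under interferon. Psmb8 had 30.4, 33.2, 37.9, 29.6 and 20.1 CPM in AAV-Osm 1 to 5, against 25.2, 23.9, 40.4 and 55.5 CPM in AAV-Null 1 to 4. Psmb9 had 12.0, 15.4, 15.4, 16.1 and 9.88 CPM in AAV-Osm libraries, against 13.2, 13.1, 18.9 and 24.3 CPM in AAV-Null libraries. Psmb10 had 52.5, 76.4, 78.1, 53.8 and 39.9 CPM in AAV-Osm libraries, against 45.4, 43.6, 72.8 and 86.3 CPM in AAV-Null libraries. In all 3 AAV-Null 4 was the highest and AAV-Osm 5 the lowest, with the groups overlapping. Log2 fold changes were -0.26 (SE 0.25) for Psmb8, -0.34 (SE 0.21) for Psmb9 and -0.05 (SE 0.24) for Psmb10. The macrophage and leukocyte markers, 8 of 8 measured, summed to 398 to 547 CPM in AAV-Osm and 371 to 839 CPM in AAV-Null libraries, with AAV-Null 4 again the highest. There Lyz2, C1qb and C1qa held 411, 168 and 156 CPM of the sum. Each marker but Ptprc was highest in AAV-Null 4, where Ptprc had 3.28 CPM, against 7.05 CPM in AAV-Osm 1, its maximum. The part of these cells in the immunoproteasome values was not tested.

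Nfe2l1, the gene of NRF1, was abundant, with 595, 768, 781, 977 and 653 CPM in AAV-Osm libraries, against 768, 768, 650.0 and 888 CPM in AAV-Null libraries. These ranges overlapped throughout, and the log2 fold change was -0.03 (SE 0.16, edgeR adjusted p = 0.997). Pomp, the chaperone that guides the closing of the beta rings, had 131, 156, 112, 86.7 and 121 CPM in AAV-Osm libraries, against 80.4, 88.6, 118 and 115 CPM in AAV-Null libraries (log2 fold change 0.27, SE 0.18, edgeR adjusted p = 0.929). Among all genes, 5.97% had an unadjusted p under 0.05. Of the genes in these lists 1 did, Maff, a small Maf protein that can pair with NRF1 and related factors. It had 6.90, 7.25, 11.2, 11.8 and 10.6 CPM in AAV-Osm libraries, against 11.6, 13.1, 14.9 and 15.6 CPM in AAV-Null libraries. Of the AAV-Osm libraries only number 4 reached into the AAV-Null range. Its log2 fold change was -0.54 with an SE of 0.19, and it did not pass (adjusted p = 0.650 in edgeR's test).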

How the data were processed

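The submitters' processing notes name mm10, featureCounts, Subread 1.5.1 and STAR 2.5.2b. Which annotation and strand setting the counting used, and how multiply matching reads were handled, no source used here states. The authors deposited whole-number read counts per gene without normalization. Their table holds 13192 named genes and 4141 blank lines, which were left out. Each named gene exceeded 0.5 CPM in at least 4 libraries.

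The test was edgeR 4.0.16, run in R 4.3.3 (TMM factors, robust quasi-likelihood F test, two-sided, group as the only term), adjusted by Benjamini-Hochberg over 13192 genes. The low-count filter removed 0 genes. SE was the log2 fold change divided by the square root of F. DESeq2 1.42.0, limma 3.58.1, a surrogate variable from sva 3.50.0, other scaling factors, other filters and libraries left out were alternatives. On simulated counts the test called 5 of 50 genes changed 1.5-fold and 35 of 50 genes changed 2-fold. Of its 143 calls there, 10 were false. No pair of libraries held identical values. The smallest chi-square per degree of freedom was 6.52, between AAV-Null 1 and AAV-Null 2, followed by 9.68 between AAV-Osm 2 and AAV-Osm 3. The remaining pairs ran from 17.3 to 132, so these libraries were more alike than others, for a reason that was not tested. Replicate numbers are names only and pair nothing.

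Members and lists were chosen with earlier results of these data known. Values in every library are given for the extremes of each class, its smallest p, Psmb5, Psmb6, Psmb7, Psmd4, Psmd14 and, of the related lists, Psmb8 to Psmb10, Nfe2l1, Pomp and genes with an unadjusted p under 0.05; other genes given in full were chosen after their values were seen. Correlations across libraries, planned to name genes of like pattern, are not given because libraries fell into separate sets.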

Additional observations from a re-analysis of the deposited data

Results flagged for a closer look

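Among 70 gene and group combinations of the 35 proteasome genes, 2 had a library far from the others of its group, where chance gives about 1 in 20. Both were in AAV-Null 4. Psmc1, an ATPase of the cap, was at 383 CPM there, above the 307 to 318 CPM of the other AAV-Null libraries. Psmc6, another ATPase of the same ring, was at 34.1 CPM, below their 51.0 to 53.4 CPM.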

How the results depend on the processing

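No paired analysis was possible because the labels give no number that AAV-Osm and AAV-Null libraries share. Over 20 alternatives the count of proteasome genes called stayed at 0, and 14 of 35 kept the sign of their log2 fold change in all 20. Psma8 was tested in 18 and kept its sign there. The alternative with no filter repeats the main fit, since the filter had removed 0 genes. DESeq2 gave no adjusted p for 1 of the 35. The count over all genes was 16 (11 higher, 5 lower), 53 with DESeq2 (24 higher, 29 lower), 170 with limma-voom and quality weights (79 and 91), 44 with 1 surrogate variable (20 and 24; chosen after seeing the data) and 4 to 11 with each library left out, of which 4 higher and 0 lower without AAV-Osm 2 or without AAV-Null 2. The cause was not tested.

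Without AAV-Null 3 and AAV-Null 4 the median log2 fold change was 0.15 for all subunits, 0.23 for core beta and 0.11 for non-ATPase genes. With limma-voom and quality weights the core beta median was 0.22 and the core alpha median 0.20. At an unadjusted p under 0.05 that method gave 8 of 35 genes (25.2% of all genes), and leaving out these libraries gave 7 of 35, all higher (9.99% of all genes), Psma6, Psmb7, Psmc5, Psmb4 and Psmd13 among them.

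Among genes given with a fold change, none past the threshold, these changed sign. With limma-voom and quality weights, values were 0.43 for Psmb10, 0.24 for Psmb5, 0.22 for Psmb6, 0.24 for Psmb8, 0.016 for Psmb9, 0.034 for Psmc1, -0.17 for Psmc6 and 0.037 for Psmd10. With AAV-Null 3 and 4 omitted, they were 0.43 for Psmb10, 0.24 for Psmb5, 0.23 for Psmb6, 0.30 for Psmb8, 0.062 for Psmb9, 0.028 for Psmc1 and 0.072 for Psmd10. With AAV-Osm 5 and AAV-Null 4 omitted, they were 0.10 for Nfe2l1, 0.27 for Psmb10, 0.17 for Psmb5, 0.14 for Psmb6, 0.13 for Psmb8, 0.064 for Psmc1, -0.13 for Psmc6, 0.0069 for Psmd10 and 0.018 for Psmd1. With 1 surrogate variable they were 0.021 for Psmb10 and 0.0090 for Psmb5, with total counts -0.024 for Psmd4, and with upper-quartile factors 0.0017 for Psmd2. With each library left out in turn, ranges were -0.097 to 0.33 for Psma6, -0.11 to 0.0079 for Psma7, -0.11 to 0.043 for Psmd1, -0.043 to 0.030 for Psmd2, -0.14 to 0.051 for Nfe2l1, -0.18 to 0.15 for Psmb10, -0.042 to 0.21 for Psmb4, -0.13 to 0.093 for Psmb5, -0.24 to 0.060 for Psmb6, -0.15 to 0.28 for Psmb7, -0.42 to 0.02 for Psmb8, -0.14 to 0.015 for Psmc1, -0.0082 to 0.26 for Psmc6 and -0.056 to 0.093 for Psmd4.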
